A study of Mus musculus with 8 samples.

Results

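GPATCH1, a protein with a G-patch domain, was depleted for 4 h in mouse embryonic stem cells, and the levels of all genes were compared with those in cells that received the solvent alone. The comparison rests on the 4 RNA-seq libraries of the genotype GPATCH1-dTAG among the 8 libraries of the study: 2 from cells treated with 200 nM dTAG-13 and 2 from cells treated with DMSO. The members were taken by genotype from the sample labels, and all genes were fitted on these 4 libraries only. In both groups GPATCH1 carries the degron tag FKBP12 F36V, which dTAG-13 bridges to the ubiquitin ligase component cereblon so that the tagged protein is degraded. The cells are named E14 in the labels, while the attached growth protocol is written for R1 cells used in CUT&RUN, a chromatin assay. That protocol gives gelatin, serum, LIF and the 2i inhibitors of the MEK and GSK3 kinases, and whether these cells were kept in the same way is not stated. Tagged lines were grown from single picked colonies, and the labels name no clone. No untagged cells were treated with dTAG-13, so loss of GPATCH1 and any other action of the compound cannot be told apart within these 4 libraries. The other 4 libraries, from DHX35-dTAG cells given the same dose for the same time, are used below for comparison and, in an alternative fit, for the estimate of the spread.

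In the spliceosome, RNA helicases of the DEAH-box family remodel RNA and proteins, and proteins with a G-patch motif bind such helicases and switch them on. GPATCH1 is the G-patch partner of the helicase DHX35, and this pair, with WDR83 next to it, has been linked to the quality control of poor 5′ splice sites. DHX15 is the helicase that takes spliceosomes apart. The question put to these cells was whether loss of either partner changes splicing fidelity. Counts per gene do not hold splice junctions, so only the levels of whole genes are described.

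The DMSO libraries held 14663300 and 13353642 counts and the dTAG-13 libraries 14994173 and 13149257, so depth differed little. What differed more was residual ribosomal RNA. CT010467.1, a ribosomal RNA gene, and Gm23935, which had the most counts, together took 4.23% and 20.9% of all counts in the DMSO libraries and 1.27% and 2.02% in the dTAG-13 libraries. The 95% Wilson interval of the largest share ran from 20.84% to 20.88% and covers counting error only. All 10 markers of embryonic stem cells were present at levels that could be tested, and their summed level was 5643 and 5610 CPM (counts scaled by library size and TMM factor) in DMSO and 5748 and 5646 CPM in dTAG-13. Markers of other cell types were low, with summed levels of 90.6 to 97.2 CPM for primitive endoderm, 36.0 to 41.8 CPM for mesoderm, 92.5 to 99.1 CPM for neuroectoderm, 38.1 to 46.3 CPM for trophoblast and 10.8 to 15.3 CPM for fibroblasts, of whose 9 markers 3 had no count in any of the 4 libraries. The labels do not say that replicates came from separate cultures, so the p-values measure only the spread between these libraries, which may be technical.

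The mRNA of the target was examined first. Gpatch1 (ENSMUSG00000063808.14), on the minus strand of chromosome 7 of GRCm38 from 35276536 to 35318440, had 7.37 and 6.94 CPM in DMSO and 7.13 and 7.20 CPM in dTAG-13. The dTAG-13 libraries lay between the DMSO libraries, and the log2 fold change was 0.00 (standard error 0.15, adjusted p = 0.999, quasi-likelihood test of edgeR, adjusted after Benjamini and Hochberg). In the 4 libraries of DHX35-dTAG cells, whose label puts the tag on DHX35, Gpatch1 had 23.0 to 25.5 CPM, so the GPATCH1-dTAG line held less Gpatch1 mRNA in DMSO already. This difference between the lines was not tested, and tag and line cannot be told apart in it. A degron acts on the protein, so these levels are no check of the depletion. Dhx35, the helicase, had 58.6 and 58.8 CPM in DMSO and 59.8 and 64.9 CPM in dTAG-13, a log2 fold change of 0.09 (standard error 0.06, adjusted p = 0.64, edgeR). Wdr83 had a log2 fold change of 0.09 (adjusted p = 0.83) and Dhx15 one of 0.01 (adjusted p = 0.96), so no member of the unit and its partner helicase passed the test.

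Across the transcriptome, most changes that were called after 4 h of dTAG-13 were small, and their number depended on the fit. Of 15815 genes tested, 144 (0.911%) passed an adjusted p of 0.05 in edgeR's quasi-likelihood test, of which 47 (0.297%) were higher and 97 (0.613%) lower in dTAG-13. The median log2 fold change of the called genes was 0.37 for the rises and -0.42 for the falls, and 110 of the 144 differed by less than 1.5-fold. By comparison, the middle 80% of all genes tested lay between -0.29 and 0.19, around a median of -0.00. Groups did not overlap for 143 of the called genes, against 41.7% of all genes tested, the exception being the small nuclear RNA gene Gm24305, and an unadjusted p under 0.05 was reached by 1816 genes (11.5%). The call depends on which libraries estimate the spread: with all 8 libraries in 1 fit no gene passed (494 at an unadjusted p under 0.05, 3.02%), although all 144 kept their direction there. With 1 of the 4 libraries left out, 62 (without DMSO replicate 2) to 509 genes (without dTAG-13 replicate 2) were called, and a fit with the replicate number as a block called 501. DESeq2 called 35 genes, all of them among the 144. Some genes were called by edgeR both in the full fit and in all 4 fits that lacked 1 library. Besides sterol genes and leading falls named below, they include Gm24270, Gm23935, Gm25911, Gm24187, Mir6236, Lars2, Gm15564 and CT010467.1. The genes just listed differed over 2-fold between the 2 libraries of a group. The mitochondrial ribosomal RNA mt-Rnr2 stayed called as well.

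The clearest rise was in cholesterol supply. Cells make cholesterol from acetyl-CoA through mevalonate, squalene and lanosterol, and also take it up from outside. When sterols in the endoplasmic reticulum are low, SREBP2 travels to the nucleus and raises the genes of both routes, while INSIG1 holds it back. Of 39 genes in 3 lists of these steps, all tested, 11 rose and none fell (28.2%), against 0.297% of all genes called higher. The lists were drawn up with earlier results on these libraries known, so their counts are a description.

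Insig1, which retains SREBP2 in the endoplasmic reticulum, had 65.9 and 62.9 CPM in DMSO and 87.4 and 84.1 CPM in dTAG-13 and so rose by 33.1% (log2 fold change 0.41, standard error 0.06). Msmo1, which removes methyl groups from sterol intermediates, had 55.6 and 57.0 CPM in DMSO and 76.6 and 80.8 CPM in dTAG-13, a rise of 39.8% (log2 fold change 0.48, standard error 0.06). In both genes the lower dTAG-13 library exceeded the higher DMSO library, with adjusted p = 0.00038 for Insig1 and 8.1e-05 for Msmo1 (edgeR).

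Among the 10 enzymes from acetyl-CoA to squalene, 4 rose, and the list had a median log2 fold change of 0.29, against -0.00 over all genes. Among them were Hmgcs1, which makes HMG-CoA, at 0.34, the isomerase Idi1 at 0.34 and the squalene synthase Fdft1 at 0.38. The summed level of the list was 526 and 532 CPM in DMSO and 674 and 667 CPM in dTAG-13. Of the 6 that did not pass, Mvd and Mvk had log2 fold changes of 0.31 (adjusted p = 0.092) and 0.27 (adjusted p = 0.16, edgeR), and Ggps1, which leads to geranylgeranyl groups rather than to sterols, was the 1 member with a value below 0, at -0.13.

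Of the 11 enzymes from squalene to cholesterol, 5 rose, with a list median of 0.25. The squalene epoxidase Sqle had a log2 fold change of 0.25, the lanosterol synthase Lss 0.29, the lanosterol demethylase Cyp51 0.42, Msmo1 0.48 and Dhcr7, which acts at the end of the route, 0.37. Their summed level went from 616 and 622 CPM in DMSO to 731 and 720 CPM in dTAG-13. Ebp (0.21, adjusted p = 0.31) and Nsdhl (-0.11, adjusted p = 0.75, edgeR) are members that did not pass. Among the 18 genes of sterol uptake, sensing and efflux, 2 rose, Insig1 being one of them, and the list median was 0.09 (0.05 without DMSO replicate 2). The transcription factor genes Srebf2 (0.13, adjusted p = 0.23) and Srebf1 (0.16, adjusted p = 0.29) did not pass, nor did the efflux transporter Abca1 (-0.01, adjusted p = 0.98, edgeR).

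Hmgcs1, Msmo1, Insig1 and Cyp51 stayed called in all 4 fits that lacked 1 library. In contrast, 5 sterol genes lost the call without DMSO replicate 1, with adjusted p of 0.06 for Fdft1, 0.40 for Idi1, 0.22 for Sqle, 0.35 for Lss and 0.26 for Dhcr7. Without DMSO replicate 2, the library rich in ribosomal RNA, Idi1 (0.19), Sqle (0.32), Lss (0.056) and Dhcr7 (0.39) lost it, and without dTAG-13 replicate 1 Lss (0.06) and Dhcr7 (0.079) did, while each log2 fold change stayed between 0.23 and 0.43. Of 14 genes of fatty acid synthesis, which SREBP1 serves, 1 was called higher (0.297% of all genes were): the desaturase Scd2 rose by 13.3% (log2 fold change 0.18, adjusted p = 0.047), a call lost without either DMSO library (adjusted p = 0.55 and 0.43), and Fasn, at 0.11 (adjusted p = 0.31, edgeR), did not pass.

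The promoters of the rising sterol genes are shown because these genes moved together. RefSeq sequences of GRCm38.p6 were taken from 250 bases before to 50 bases after the annotated start. They are shown for 4 of the 7 sterol genes among the leading rises. These are the genes with 1 entry and a match to at least 1 of the 2 motifs marked. A window with neither motif would not be shown, so a match in each of the 4 was fixed beforehand. Capitals mark CCAAT, the box bound by NF-Y, and TCACNCCAC, a form of the sterol regulatory element, both read on either strand, so CCAAT may appear as ATTGG. The windows are chr13:119690101-119690400 on the plus strand for Hmgcs1, chr5:28071162-28071461 on the plus strand for Insig1, chr8:64733529-64733828 on the minus strand for Msmo1 and chr5:4104648-4104947 on the minus strand for Cyp51.
Hmgcs1: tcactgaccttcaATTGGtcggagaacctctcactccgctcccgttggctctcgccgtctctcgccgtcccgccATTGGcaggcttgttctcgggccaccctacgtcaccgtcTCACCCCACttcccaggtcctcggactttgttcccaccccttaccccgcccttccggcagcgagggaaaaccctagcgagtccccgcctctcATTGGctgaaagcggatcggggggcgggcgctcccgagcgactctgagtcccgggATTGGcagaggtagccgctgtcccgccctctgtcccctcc
Insig1: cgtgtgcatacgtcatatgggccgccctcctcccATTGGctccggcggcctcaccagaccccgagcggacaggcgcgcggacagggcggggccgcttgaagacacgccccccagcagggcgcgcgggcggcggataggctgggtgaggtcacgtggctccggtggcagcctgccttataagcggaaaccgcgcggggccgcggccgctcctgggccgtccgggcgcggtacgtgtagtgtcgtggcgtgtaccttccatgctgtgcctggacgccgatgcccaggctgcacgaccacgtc
Msmo1: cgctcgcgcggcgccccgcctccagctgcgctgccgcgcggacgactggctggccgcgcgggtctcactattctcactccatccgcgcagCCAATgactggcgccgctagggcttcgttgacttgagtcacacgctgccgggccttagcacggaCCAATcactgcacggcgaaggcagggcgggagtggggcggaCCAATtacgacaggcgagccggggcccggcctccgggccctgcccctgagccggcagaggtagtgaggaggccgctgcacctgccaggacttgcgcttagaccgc
Cyp51: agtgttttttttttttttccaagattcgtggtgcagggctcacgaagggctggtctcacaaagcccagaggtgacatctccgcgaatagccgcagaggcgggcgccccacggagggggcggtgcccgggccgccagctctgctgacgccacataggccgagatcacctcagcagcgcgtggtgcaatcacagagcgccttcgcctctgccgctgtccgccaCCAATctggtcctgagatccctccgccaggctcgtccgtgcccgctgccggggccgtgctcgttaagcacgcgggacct
CCAAT was found in all 4, with 4 matches in Hmgcs1, 3 in Msmo1 and 1 each in Insig1 and Cyp51, and TCACNCCAC in Hmgcs1 alone. Of the 11 called sterol genes, 7 had an entry, and each of the 7 held CCAAT, as did 22 of 28 genes with an entry in the 3 lists as a whole. Over all 32851 promoter entries, 37.4% held CCAAT and 1.24% held TCACNCCAC. These are shares of entries, while a gene was counted above if any of its entries held the motif. The 2 measures are therefore not like for like. The 2 motifs share no overlapping match in these windows, and a match in letters is no proof of a bound site.

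**Figure D1:**
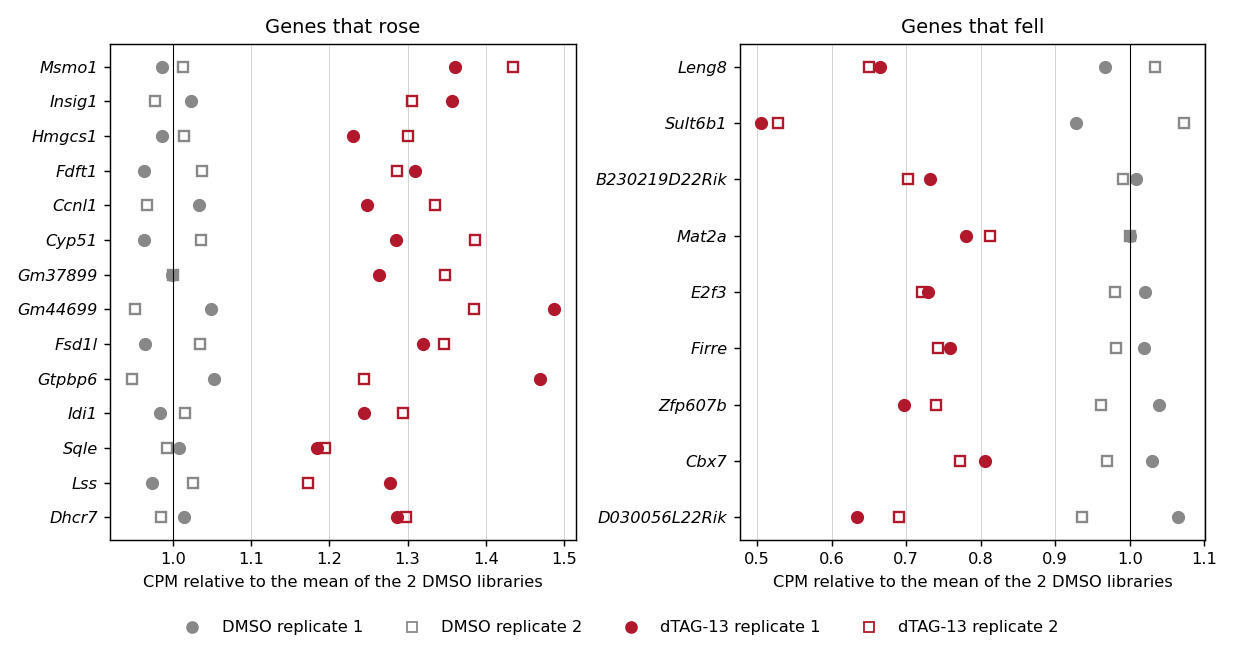
Each row is a gene, and each symbol is 1 library, at its CPM relative to the mean of the 2 DMSO libraries (circles are replicate 1, open squares replicate 2). The left panel holds 10 of the 12 leading rises and 4 further sterol enzymes, the right panel 9 of the 12 leading falls, and in each row the dTAG-13 libraries lie on 1 side of both DMSO libraries.

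Genes that fell were led by Leng8, whose protein is related to factors of mRNA export. Leng8 (chromosome 7, 4137039 to 4148177) had 123 and 132 CPM in DMSO and 84.8 and 82.9 CPM in dTAG-13. Both dTAG-13 libraries lay far below both DMSO libraries, a fall of 34.2% with the lowest p of all genes (log2 fold change -0.60, standard error 0.05, adjusted p = 1.7e-06, edgeR). Sult6b1, a member of the sulfotransferase family (chromosome 17, 78883938 to 78906992), had 18.5 and 21.4 CPM in DMSO and 10.1 and 10.5 CPM in dTAG-13. It fell by 48.2% (log2 fold change -0.95, standard error 0.11, adjusted p = 3.3e-05, edgeR). This was the deepest of the leading falls whose replicates differed by less than 2-fold.

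Mat2a makes S-adenosylmethionine, the methyl donor of the cell, and its mRNA is known to be controlled through retention of an intron. It had 529 and 529 CPM in DMSO and 413 and 429 CPM in dTAG-13, so the groups were well apart at a high level, and it fell by 20.4% (log2 fold change -0.33, standard error 0.04, adjusted p = 0.0002, edgeR). E2f3, a transcription factor of entry into S phase, had 66.8 and 64.2 CPM in DMSO and 47.8 and 47.2 CPM in dTAG-13, a fall of 27.5% (adjusted p = 0.0002, edgeR). It was the 1 gene called among 36 genes of the cell cycle list, a count near the background of 0.911% of all genes (0.613% lower), and the list median was 0.02 (0.05 without DMSO replicate 1, 0.04 without dTAG-13 replicate 1).

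Cbx7, a Polycomb protein that reads methylated histone H3, fell from 239 and 225 CPM to 187 and 179 CPM (log2 fold change -0.34). Firre, a long non-coding RNA of the X chromosome, fell from 97.9 and 94.2 CPM to 72.9 and 71.3 CPM (log2 fold change -0.41). The zinc finger gene Zfp607b (-0.48), B230219D22Rik (-0.48) and D030056L22Rik (-0.59) complete the leading falls whose replicates differed by less than 2-fold, each with an adjusted p of 0.00038 or lower (edgeR). All 9 of these falls stayed called in the 4 fits that lacked 1 library.

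Outside the sterol genes, the leading rises were Ccnl1, Gm37899, Gm44699, Fsd1l and Gtpbp6. Ccnl1, cyclin L1, pairs with the kinases CDK11 and is linked to splicing and transcription. It had 98.1 and 91.8 CPM in DMSO and 119 and 127 CPM in dTAG-13, a rise of 29.2% without overlap (log2 fold change 0.37, standard error 0.06, adjusted p = 0.00063, edgeR). Gm37899 (0.38), a locus annotated as to be experimentally tested, stayed called with each library left out, as did Ccnl1. Fsd1l (0.41) lost the call without DMSO replicate 1 (adjusted p = 0.17), Gm44699 (0.52) without DMSO replicate 2 (0.087), and the GTP-binding protein gene Gtpbp6 (0.44) without DMSO replicate 2 (0.093) or dTAG-13 replicate 1 (0.064, edgeR). Wdr83, Dhx15, Hmgcs1, Fdft1, Cyp51, Ccnl1, Gm44699, Gm47615, Gtpbp6, Leng8, Mat2a, Cbx7, mt-Atp6, Gm24270, Gm23935 and Gm15564 overlap the annotated span of another tested gene, and since the strand setting of the counting is not given in the sources used here, reads in such stretches cannot be assigned with certainty. Over 2-fold rises were called for 3 scarce genes, named after their values were seen, each of which lost the call without DMSO replicate 2 (adjusted p of 0.12 for Znrd2, 0.26 for Gm47615 and 0.10 for Rplp0-ps1) or dTAG-13 replicate 1 (0.077, 0.056 and 0.17). Without DMSO replicate 1, Znrd2 (0.078) and Rplp0-ps1 (0.45) lost it too. Znrd2 had 0.978 and 0.801 CPM in DMSO and 2.75 and 2.31 CPM in dTAG-13, Gm47615 had 2.67 and 1.60 against 4.75 and 4.61 CPM, and the pseudogene Rplp0-ps1 had 0.456 and 0.623 against 1.94 and 1.44 CPM, a near-identical copy whose reads cannot be parted from those of Rplp0 with certainty.

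The spliceosome lists held no call, a count near the background for their size. In 7 lists that hold the DHX35-GPATCH1 unit, disassembly factors and cofactors of DHX15, spliceosomal helicases, factors of the 2 catalytic steps, tri-snRNP and U2 proteins, SR proteins with their kinases and hnRNP proteins, 134 different genes were tested and 0 passed, where a share of 0.911%, as over all genes, comes to about 1 gene. Their median log2 fold change was 0.03, and the single values lay between -0.25 and 0.18. The large scaffold gene Prpf8 had 0.02 (adjusted p = 0.90), the branch site factor Sf3b1 0.03 (adjusted p = 0.84) and the helicase Snrnp200 0.06 (adjusted p = 0.66, edgeR). Closest to the threshold was Srsf6, an SR protein, at -0.16 (adjusted p = 0.087, edgeR). The lists do not hold every protein of the snRNPs. Cd2bp2 and Snrnp48, which are outside them and are named after their values were seen, were called lower. Cd2bp2, for a protein of the U5 snRNP, had 114 and 112 CPM in DMSO and 96.1 and 93.4 CPM in dTAG-13 (log2 fold change -0.26, adjusted p = 0.016, edgeR). Snrnp48, of the U11/U12 snRNP of the minor spliceosome, had 83.9 and 85.3 CPM in DMSO and 68.8 and 70.2 CPM in dTAG-13 (-0.28, adjusted p = 0.012, edgeR). Both lost the call without DMSO replicate 1 (adjusted p = 0.32 and 0.12) or DMSO replicate 2 (0.19 and 0.25, edgeR). Of 17 factors of nonsense-mediated decay, the pathway that removes mRNAs with early stop codons, none passed either, and Smg1 and Upf1 had 0.05 each (adjusted p = 0.73 and 0.80, edgeR). Of 14 tested host genes of small nucleolar RNAs, which that pathway also degrades, Snhg16 rose (log2 fold change 0.33, adjusted p = 0.016), a call lost without DMSO replicate 1 (adjusted p = 0.32) or dTAG-13 replicate 1 (0.092), and Gas5 had -0.00 (adjusted p = 0.99, edgeR).

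Of the 144 called genes, 126 belong to none of the lists, 33 of them higher and 93 lower, and no theme was tested among them. A few are named here after their values were seen. Rsrp1, an arginine and serine rich protein, had 110 and 107 CPM in DMSO and 87.9 and 83.1 CPM in dTAG-13 (log2 fold change -0.34, adjusted p = 0.001, edgeR), and stayed called in the 4 fits that lacked 1 library. Arglu1, a coactivator that also modulates splicing, had 78.6 and 75.5 CPM in DMSO and 61.8 and 62.2 CPM in dTAG-13 (-0.31), and lost the call without DMSO replicate 1 (adjusted p = 0.21, edgeR). Rbm15, which guides RNA adenosine methylation, had 176 and 166 CPM in DMSO and 203 and 204 CPM in dTAG-13 (0.25), and lost the call without DMSO replicate 1 (adjusted p = 0.06) or DMSO replicate 2 (0.44, edgeR). Gpatch3, another G-patch gene, had 9.98 and 8.63 CPM in DMSO and 13.4 and 13.4 CPM in dTAG-13 (0.53), and lost the call without DMSO replicate 1 (adjusted p = 0.051), DMSO replicate 2 (0.42) or dTAG-13 replicate 1 (0.096, edgeR). In none of the 4 did the groups overlap in the full fit.

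Of 17 tested factors of naive pluripotency none passed, where 0.911% of all genes did, and their median was 0.04, or 0.01 with either dTAG-13 library left out: Pou5f1, which encodes OCT4, had 0.09 (adjusted p = 0.51), Esrrb 0.04 (adjusted p = 0.79) and Tfcp2l1 -0.01 (adjusted p = 0.98, edgeR). None passed among 18 formative and early lineage genes, 13 genes of the LIF and STAT3 pathway, 18 Wnt targets and 7 genes of the 2-cell-like state. In lists of this size a share of 0.911% comes to less than 1 gene, so a count of 0 is near the background. Of 15 genes of FGF signalling, the feedback inhibitor Spry4 rose from 58.5 and 56.8 CPM to 72.4 and 70.0 CPM (log2 fold change 0.30, adjusted p = 0.01, edgeR). Without DMSO replicate 1 or DMSO replicate 2 its adjusted p was 0.10 and 0.25.

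Among the stress lists 1 gene was called, a count near the 0.911% of all genes. Btg2, which holds back proliferation and stands in both the p53 list and the list of immediate early genes, had 26.8 and 28.4 CPM in DMSO and 22.9 and 19.02 CPM in dTAG-13 (log2 fold change -0.39, adjusted p = 0.038, edgeR). It lost the call without DMSO replicate 1 (adjusted p = 0.066), DMSO replicate 2 (0.32) or dTAG-13 replicate 2 (0.13). It was 1 of 21 p53 targets and 1 of 22 immediate early genes tested, and Trp53 itself had 0.09 (adjusted p = 0.41, edgeR). No gene passed among 28 targets of the integrated stress response, where Asns had 0.01 (adjusted p = 0.95), and among 21 heat shock genes, where Hspa8 had 0.11 (adjusted p = 0.35, edgeR).

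Genes of the machinery that dTAG-13 engages did not pass either, and with 0.911% of all genes called these counts of 0 are near the background. None of 15 genes of the cereblon ligase passed, with Ddb1 at 0.05 (adjusted p = 0.72) and Cul4b at 0.02 (adjusted p = 0.93, edgeR), nor any of 9 genes of known cereblon neosubstrates or 42 proteasome genes. The proteasome genes lay mostly above 0, 36 of 42 with a median of 0.05, as did 57 of 83 cytosolic ribosomal protein genes with a median of 0.04 and 19 of 20 glycolysis genes with a median of 0.08, against 49.8% of all genes above 0, and 0 of each list passed. Without dTAG-13 replicate 1 the medians were 0.03 for the glycolysis genes and 0.02 for the ribosomal protein genes, the latter being 0.06 without dTAG-13 replicate 2. None of 96 nuclear genes of oxidative phosphorylation, 8 histone genes, 13 genes of DNA methylation and its removal or 50 small nucleolar and Cajal body RNAs passed. Of 147 such small RNAs in the tables, 76 had no count in any of the 4 libraries.

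The largest fold changes were at genes whose level was highest in DMSO replicate 2, the library richest in residual ribosomal RNA. In 12 of the 144 called genes the 2 libraries of a group differed over 2-fold, as they did in 588 of all 15815 genes tested. All 12 were lower in dTAG-13 and higher in DMSO replicate 2 than in DMSO replicate 1. They were Gm24270, Gm23935, Gm25911, Gm24187 and Mir6236, all annotated as miRNAs, the ribosomal RNA gene CT010467.1, Lars2, Gm15564, Gm22513, Gm24305, Rny1 and the mitochondrial ribosomal RNA mt-Rnr1. Gm24270 had 162 and 1676 CPM in DMSO and 18.4 and 44.8 CPM in dTAG-13. DMSO replicate 2 exceeded each of the other 3 libraries over 10-fold, and the log2 fold change of -4.86 (standard error 0.58, adjusted p = 5.2e-05, edgeR) went the other way in DHX35-dTAG cells, at 5.50. Gm23935 went from 34807 and 140648 CPM to 8426 and 15758 CPM (log2 fold change -2.86) and Gm25911 from 77.7 and 258 CPM to 29.4 and 47.5 CPM (-2.12). Neither, nor Gm24270, was called by DESeq2. Of the 12, 10 were higher in dTAG-13 in DHX35-dTAG cells, where the dTAG-13 libraries carried the larger share of Gm23935 and CT010467.1, 11.98% and 20.22% against 3.15% and 1.54% in DMSO. The exceptions, Gm22513 and Gm24305, did not follow that share. In DHX35-dTAG cells they were highest in DMSO replicate 1, at 263 and 98.2 CPM, where the share was 3.15%. Without these 12, the called genes were 47 rises and 85 falls.

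**Figure D2:**
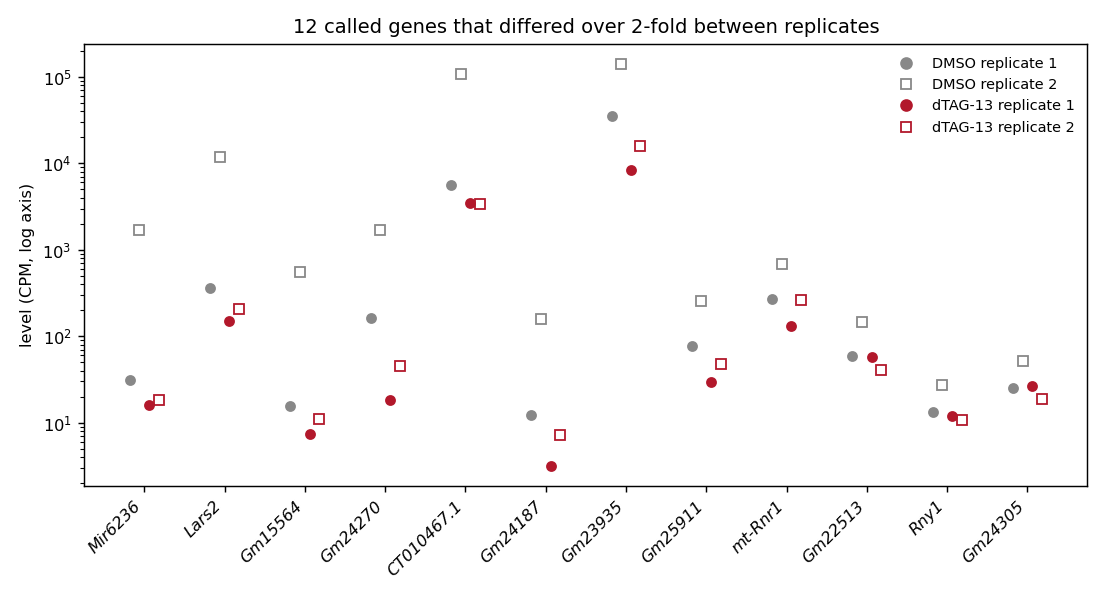
Each column is 1 of the 12 called genes that differed over 2-fold between replicates, with the level of each of the 4 libraries in CPM on a log axis (circles are replicate 1, open squares replicate 2). DMSO replicate 2 is the highest library for each gene.

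Mitochondrial transcripts were uneven between replicates as well. Of 10 mRNAs of the mitochondrial genome tested, mt-Cytb and mt-Atp6 fell, where 0.613% of all genes did, and 9 of the 10 had values below 0, against 50.2% of all genes. The list median of -0.45 depended on single libraries: it was -0.20 without dTAG-13 replicate 1, -0.27 without DMSO replicate 2 and -0.73 without dTAG-13 replicate 2. For mt-Cytb, of complex III, the levels were 1236 and 1670 CPM in DMSO and 757 and 1213 CPM in dTAG-13 (log2 fold change -0.56, adjusted p = 0.027, edgeR). The upper dTAG-13 library was just under the lower DMSO library, and without dTAG-13 replicate 1 the log2 fold change was -0.26 (adjusted p = 0.13). For mt-Atp6, of the ATP synthase, the log2 fold change of -1.17 rested on 1.13 to 3.74 CPM and lost its call without DMSO replicate 2 (adjusted p = 0.33) or dTAG-13 replicate 1 (0.22). In DHX35-dTAG cells the list median was 0.92, or 0.54 without DMSO replicate 1. The mitochondrial ribosomal RNA mt-Rnr2, outside this list and named after its values were seen, was called lower too. It had 6825 and 9462 CPM in DMSO and 4638 and 6194 CPM in dTAG-13 (log2 fold change -0.59, adjusted p = 0.0039, edgeR). Its log2 fold change in DHX35-dTAG cells was 0.26.

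By class of gene, the median of long non-coding RNAs lay below that of protein-coding genes. Of 850 genes annotated as lincRNA, antisense, bidirectional promoter lncRNA or processed transcript, 603 (70.9%) had values below 0, against 48.8% of 12559 protein-coding genes, and the medians were -0.15 and 0.00. The shift was seen in each pair of a dTAG-13 and a DMSO library, with medians of -0.15, -0.13, -0.16 and -0.14, so no single library carried it. Called genes were few, 11 falls and 1 rise (1.41%), against 0.911% of all genes (0.613% lower and 0.297% higher). These counts were not tested against each other. Of the 850, 348 are annotated antisense, and without the strand setting their reads cannot be parted from those of the gene across from them. The other 502 had a median of -0.17, with 75.1% below 0. These RNAs are scarce, with a median level of 1.86 CPM against 24.6 CPM for protein-coding genes. Not in the class were 757 loci annotated as to be experimentally tested (median 0.01) and 128 sense intronic genes (median -0.01). In DHX35-dTAG cells the median of the class was -0.14, or -0.04 without DMSO replicate 1.

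The number of introns, which sets how often a transcript must be spliced, was compared among protein-coding genes. Medians moved little, from -0.03 for 271 genes without introns and -0.03 for 2951 genes with 1 to 4 introns to 0.02 for 1821 genes with 20 or more. In order of intron number, the calls were 6 rises and 31 falls for 1 to 4 introns (1.25%), 10 and 20 for 5 to 9 (0.795%), 11 and 11 for 10 to 19 (0.588%) and 10 and 4 for 20 or more (0.769%), against 37 rises and 68 falls among all protein-coding genes (0.836%). The 2 calls among the 271 intronless genes (0.738%) are the mitochondrial mt-Cytb and mt-Atp6, and 0 of the 261 intronless genes off the mitochondrial genome were called. These counts were not tested against each other.

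The DHX35-dTAG line shows which of these values also appear when the partner helicase carries the tag. In a fit of its own 4 libraries 1 gene was called (0.00636%, with 299 or 1.9% at an unadjusted p under 0.05), and 20 (0.123%) without DMSO replicate 1, a library that stood apart with a mean correlation of 0.976 with the others. Whether the lines responded differently, tested as an interaction over all 8 libraries, gave no gene at an adjusted p of 0.05 by edgeR (681 at an unadjusted p under 0.05, 4.16%, lowest adjusted p = 0.56) and 9 by DESeq2, of which 8 are among the 12 genes above and the other is mt-Nd5. So no called gene is shown to be particular to GPATCH1-dTAG cells by edgeR in this fit, and the values are given side by side. Other edgeR settings, given in the last section, did call some of the 12 genes. Gm24270, for example, was called with the replicate number as a block.

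Of the 39 genes of the sterol lists, 30 had values above 0 in GPATCH1-dTAG cells and 27 in DHX35-dTAG cells. All 11 called sterol genes had positive values in DHX35-dTAG cells, between 0.23 and 0.49, or between 0.20 and 0.46 without DMSO replicate 1, against 0.25 to 0.52 in GPATCH1-dTAG cells. Among members that were not called, some had opposite signs, with Nsdhl at -0.11 in GPATCH1-dTAG and 0.39 in DHX35-dTAG cells and Ebp at 0.21 and -0.09. Insig1 had 0.41 in GPATCH1-dTAG and 0.39 in DHX35-dTAG cells, Msmo1 0.48 and 0.29, and Cyp51 0.42 and 0.44, with unadjusted interaction p of 0.81, 0.24 and 0.90 (edgeR). Spry4 had 0.30 and 0.32. DHX35-dTAG cells received the same compound, and no library with the compound but without a degron was analysed here.

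The other 121 called genes whose replicates differed by up to 2-fold went both ways in DHX35-dTAG cells, from -1.02 to 1.59, with 40 of them within 0.1 of 0 (69 without DMSO replicate 1). The 36 rises outside the sterol lists had a median of 0.33 in GPATCH1-dTAG cells and -0.04 in DHX35-dTAG cells, where 13 of 36 were above 0, and 49.0% of all genes were. Without DMSO replicate 1 it was 14 of 36 with a median of -0.05, against 50.9% of all genes. The 85 falls had medians of -0.40 and -0.01, and 43 of 85 were also below 0 in DHX35-dTAG cells, against 51.0% of all genes. Without DMSO replicate 1 it was 58 of 85 with a median of -0.04, against 49.1% of all genes. Leng8 had -0.60 in GPATCH1-dTAG cells and 0.07 in DHX35-dTAG cells, a difference of -0.68 (standard error 0.16, adjusted p = 0.85 for the interaction, edgeR). Sult6b1 had -0.95 and 0.00, Mat2a -0.33 and -0.01, E2f3 -0.46 and 0.02, and Ccnl1 0.37 and -0.03. Their unadjusted interaction p lay between 0.0012 and 0.017, and none passed adjustment. Of the other leading falls with even replicates, Firre had -0.41 and -0.27, Cbx7 -0.34 and -0.16 and D030056L22Rik -0.59 and -0.18. The unadjusted interaction p of these genes was 0.33, 0.21 and 0.09 (edgeR). Without DMSO replicate 1 their DHX35-dTAG values were -0.14, -0.05 and 0.06. Zfp607b had -0.48 and 0.11 and B230219D22Rik -0.48 and 0.14, with 0.012 and 0.0063 for the interaction (edgeR, unadjusted).

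**Figure D3:**
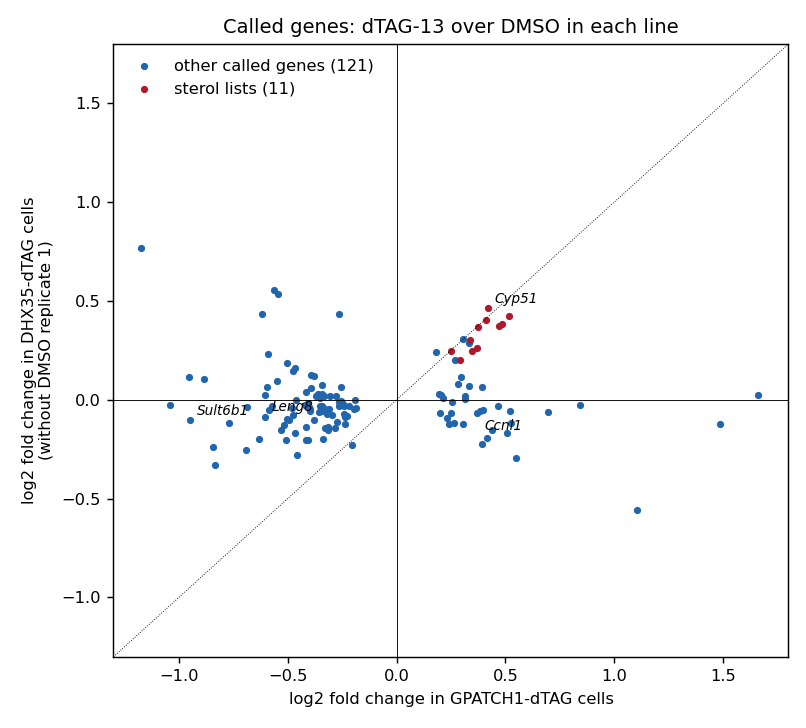
Each point is a called gene by its log2 fold change of dTAG-13 over DMSO in GPATCH1-dTAG cells and in DHX35-dTAG cells without DMSO replicate 1, with the 12 genes that differed over 2-fold between replicates left out and a dotted line of equal values. The 11 sterol genes lie between 0.20 and 0.46 on the vertical axis, while the other 121 points lie on both sides of 0 on it, 69 of them within 0.1 of 0.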

How the data were processed

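Libraries were made from RNA depleted of ribosomal RNA, with human DLD-1 RNA as spike-in, and sequenced as stranded paired ends. Per the paper's methods and the submitters' processing notes, the authors used FastQC 0.11.9, Trim Galore 0.6.6 and STAR 2.7.5c (mm10 and hg19), and the notes also name DESeq2 1.26.0. The authors deposited raw read counts per gene symbol, 1 table per library, without normalization. The counting program, annotation and strand setting are not given in the sources used here, and spike-in reads were not used here. Genes were placed with GENCODE M21 (GRCm38), in which 53292 of 55291 symbols were found.

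From these counts, dTAG-13 was compared with DMSO in the 4 GPATCH1-dTAG libraries with edgeR 4.0.16 in R 4.3.3 (glmQLFit in its current form, TMM, filterByExpr by group, Benjamini-Hochberg, threshold 0.05). Standard errors are the log2 fold change over the square root of F. DESeq2 1.42.0 and limma 3.58.1 gave alternatives. The genes named were Gpatch1, Dhx35, Wdr83 and Dhx15, the 12 rises and 12 falls with the lowest p (called, mean CPM of at least 1, no overlap), every called list member, and up to 4 further members per list by level. Some genes that this rule names are counted in the lists but not reported here. Members and lists were chosen with earlier results of these data known. Replicates were not duplicates (chi-square per gene 136 in DMSO and 5.47 in dTAG-13). The scripts were tested on simulated data.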

Additional observations from a re-analysis of the deposited data

How the results depend on the processing

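Each setting kept the direction of all 144 called genes that it tested, but the count moved. It was 35 by DESeq2 (45.7% of the calls higher, against 32.6%), which gave no adjusted p for 34 of the 144, 5 without an expression filter, 0 with all 8 libraries in the fit and 45 with 7, DHX35-dTAG DMSO replicate 1 being left out, an alternative chosen after seeing the data. It stayed between 127 and 152 with DESeq2's size factors, at least 10 counts in every library, the older form of the test, limma-voom with sample quality weights, a robust prior, or without the 2 genes with the highest counts. With each library left out it ranged from 62 to 509: 86 without DMSO replicate 1, 62 without DMSO replicate 2, and 509 without dTAG-13 replicate 2. A replicate block gave 501 calls (186 higher, 315 lower), but the deviations of same-numbered libraries correlated at 0.026, so the numbers do not pair the samples. The interaction count, 0 in the fit given, was 9 by DESeq2, 2 with the replicate block (Gm24270 and mt-Nd2), and 0 to 3566 with each library left out: 3566 without DHX35-dTAG DMSO replicate 2, which leaves the library that stands apart as the only DMSO one, 9 without DHX35-dTAG DMSO replicate 1, 7 without GPATCH1-dTAG DMSO replicate 1 and 1 without GPATCH1-dTAG DMSO replicate 2. The cause of these moves was not tested. Of 300 values of named genes under the alternatives, 74 lost the call, 34 of them with all 8 libraries, and none changed direction with a call. Of 320 list medians, 59 moved by more than the spread between replicates. With 2 libraries a group, how detection depends on a gene's level was not tested.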
